A study of Homo sapiens with 24 samples.

Results

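J82 is a human bladder cancer cell line, and this comparison sets its derivative with high expression of the receptor CD44 (CD44 High) against its derivative with low expression (CD44 Low). The members are the 6 libraries whose titles carry these names, 3 of CD44 High and 3 of CD44 Low, out of 24 libraries in the series, and every gene of the deposited count table was considered. The other libraries came from parental J82 cells, a J82 derivative with high CD44v6 (an isoform group with the v6 variant exon), and the same 4 groups of a second bladder cancer line, RT-112, with 3 biological replicates per group. The labels give no genotype change, treatment or time, and do not say how the derivatives were made or whether each is a clone or a pool, so a difference between CD44 High and CD44 Low describes these 2 lines. The question of the comparison is which transcripts go with the CD44 level in J82.

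CD44 is a transmembrane receptor for hyaluronan, a long sugar polymer of the extracellular matrix. It is linked to the actin cytoskeleton through ezrin, radixin and moesin, and serves as a platform for growth factor receptors such as MET and for matrix proteases. In urothelium CD44 marks basal cells, and in bladder cancer it is widely used as a marker of cells with stem-like behaviour.

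Levels are given as CPM, the deposited count of a gene scaled to its library's size after TMM correction. A gene was called where the edgeR quasi-likelihood F-test gave a Benjamini-Hochberg adjusted p under 0.05, and every adjusted p below comes from that test over 15951 genes. Fold changes are log2 values, CD44 High minus CD44 Low, so that a positive value means a higher level in CD44 High. The libraries held 18697618 to 22698239 counts in CD44 High and 16964094 to 18775501 in CD44 Low. The noncoding RNAs RN7SK, RN7SL1, RN7SL2 and RN7SL4P together made up 4.24% to 5.67% of a CD44 High library and 5.04% to 7.54% of a CD44 Low library. The 15 genes of the mitochondrial genome took 0.271% to 0.486% and 0.410% to 1.14%, and the part of either share in the differences below was not tested.

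CD44 was at 717, 772 and 714 CPM in CD44 High and at 312, 275 and 255 CPM in CD44 Low. All CD44 High libraries lay above all CD44 Low libraries, and parental cells lay in between at 448 ± 46.9 CPM (SD, n = 3). The fold change of 1.39 (SE 0.17, adjusted p = 0.00012) goes in the direction of the labels, and it lay between 1.33 and 1.47, and was called, in all 15 alternatives run. The count is per gene, so it does not separate isoforms of CD44.

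Markers listed for J82 cells were abundant in all 6 libraries: the keratin KRT8 at 3896 to 5121 CPM, KRT18 at 1413 to 1995 CPM, and the intermediate filament gene VIM at 213 to 628 CPM. Of the 8 leukocyte markers, which summed to 144 to 223 CPM in CD44 High and 79.4 to 126 CPM in CD44 Low, 3 were tested and 2 called higher (CD68 and ITGAM). CD14 went the other way without a call, with 9, 0 and 12 counts in CD44 High and 30, 24 and 22 in CD44 Low. CD3E and CD79A had no counts and PTPRC had 0 to 3 counts per library, so nearly the whole sum was CD68, which encodes a lysosomal protein (142, 144 and 218 CPM against 77.6, 81.6 and 122 CPM). The marker sums in this paragraph were scaled to library totals without the TMM correction, so they differ slightly in scale from the values of single genes. The 6 endothelial markers, of which 1 of 3 tested was called lower (KDR), summed to 0.196 to 1.23 CPM in CD44 High and 4.54 to 5.63 CPM in CD44 Low, with CDH5 and CLDN5 at 0 in all 6. The 7 fibroblast markers summed to 412 to 452 CPM in CD44 High and 1037 to 1282 CPM in CD44 Low, and 3 of 4 tested were called lower (PDGFRB, LUM and COL3A1). Nearly all of that sum was the collagen gene COL3A1, while DCN and FAP had no counts and PDGFRA had at most 1. Of the 10 epithelial markers of RT-112, 1 of 4 tested was called lower (CDH1), ESRP1, GRHL2 and OVOL1 had no counts, and the sum of 334 to 357 CPM in CD44 High and 258 to 314 CPM in CD44 Low was almost wholly KRT19. None of the 4 was called higher, but 2 were higher by edgeR at an unadjusted p under 0.05. EPCAM went opposite to CDH1, with 47, 40 and 35 counts in CD44 High and 14, 25 and 21 in CD44 Low.

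At the stated threshold 2508 of 15951 genes (15.7%) differed between the lines. Of them, 1408 (8.83%) were higher in CD44 High and 1100 (6.9%) were lower. Of these, 426 rose and 290 fell by at least 1 on the log2 scale. Over all genes tested the median fold change was -0.02, and 2477 of the called genes had groups that did not overlap, beside 17.9% of all tested genes without overlap on the higher side and 17% on the lower side. The number called was 1619 without CD44 High replicate 1, 1578 without CD44 High replicate 2 and 1593 without CD44 Low replicate 1, and the number lower was 662, 629 and 612 in the same fits.

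**Figure D1:**
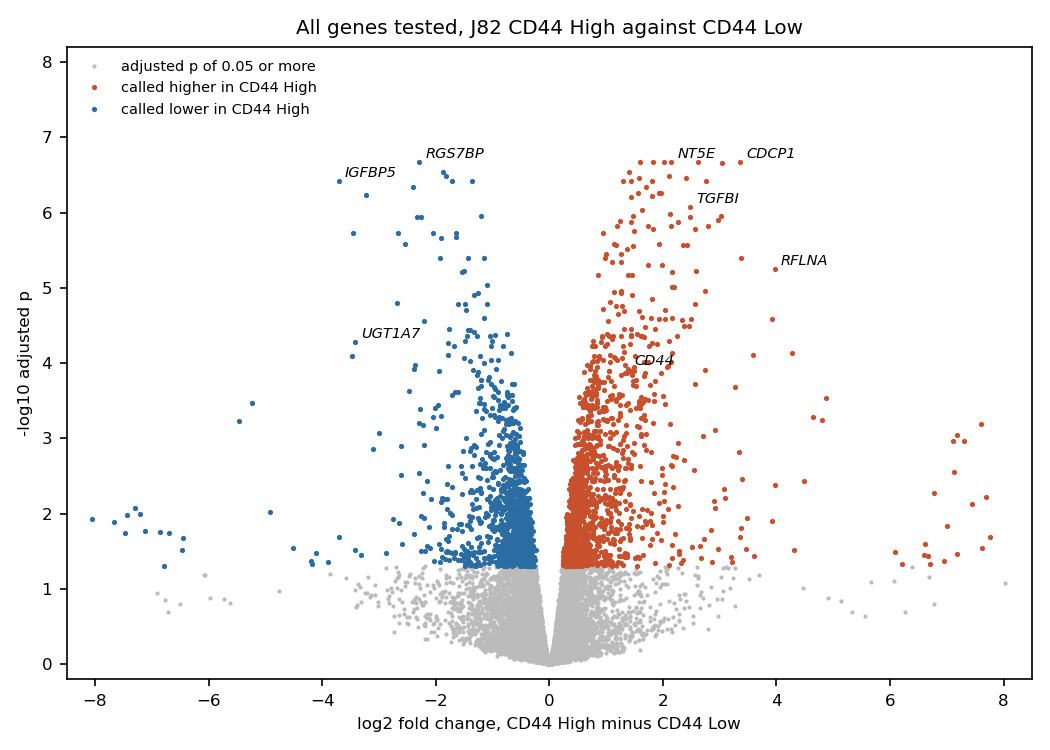
Each point is 1 of the 15951 genes tested, with the log2 fold change (CD44 High minus CD44 Low) on the x axis and -log10 of the adjusted p on the y axis; orange points were called higher in CD44 High and blue points lower. CD44 lies at 1.39 with many genes above it on both sides, and the 33 called genes beyond 6 in size are all genes with no counts in any library of 1 group, so their fitted fold changes are not to be read as sizes.

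The 12 largest increases were taken among called genes with an average log2 CPM of 3 or more and groups not overlapping, and their log2 fold changes ran from 2.48 (PODXL) to 3.97 (RFLNA). RFLNA was at 24.3, 17.1 and 21.5 CPM in CD44 High and at 0.899, 0.705 and 2.42 CPM in CD44 Low. RFLNA encodes refilin A, a filamin-binding protein that organises actin filaments, and its lowest CD44 High library was far above its highest CD44 Low library (log2 fold change 3.97, SE 0.33, adjusted p = 5.58e-06). CDCP1 was at 29.1, 29.8 and 29.3 CPM in CD44 High and at 2.75, 3.04 and 2.82 CPM in CD44 Low. CDCP1 is a transmembrane substrate of SRC-family kinases, and its libraries within each group were nearly equal (log2 fold change 3.36, SE 0.18, adjusted p = 2.15e-07). ITGA2 was at 89.4, 91.4 and 72.1 CPM in CD44 High and at 10.5, 8.84 and 11.6 CPM in CD44 Low. This subunit of a collagen-binding integrin rose by 3.03 (SE 0.16, adjusted p = 2.23e-07), again with no overlap. The receptor tyrosine kinase gene EPHB2 rose by 2.80, from 2.67 ± 0.43 to 18.6 ± 1.27 CPM (SD, n = 3 per group). FSCN1, which encodes the actin-bundling protein fascin of filopodia, rose by 2.75, from 3.6 ± 1.09 to 24.1 ± 2.93 CPM.

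PODXL was at 683, 624 and 716 CPM in CD44 High and at 134, 90.4 and 139 CPM in CD44 Low. PODXL encodes the sialomucin podocalyxin and was among the more abundant of these transcripts (log2 fold change 2.48, SE 0.17, adjusted p = 1.15e-06). MME was at 147, 119 and 134 CPM in CD44 High and at 21.8, 17.5 and 28.2 CPM in CD44 Low. MME encodes the membrane peptidase neprilysin (CD10), and the groups did not overlap (log2 fold change 2.57, SE 0.19, adjusted p = 1.65e-06). TGFBI was at 158, 173 and 114 CPM in CD44 High and at 28.2, 28 and 23.4 CPM in CD44 Low. TGFBI encodes a secreted matrix protein that binds integrins and is named for its induction by TGF-beta (log2 fold change 2.49, SE 0.17, adjusted p = 8.4e-07). SCG2, for a granin of secretory granules, rose by 2.75, MGAM, for an intestinal-type maltase-glucoamylase, by 2.63, and IGFBP4 by 2.74, while ANKRD1 is described with the YAP targets below.

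The 12 largest decreases, chosen by the same rule, held several adhesion molecules of the cadherin superfamily and secreted regulators. IGFBP5 was at 28.5, 18.9 and 31.7 CPM in CD44 High and at 418, 328 and 289 CPM in CD44 Low. IGFBP5 is a secreted binding protein of insulin-like growth factors, and its lowest CD44 Low library was several times its highest CD44 High library (log2 fold change -3.71, SE 0.22, adjusted p = 3.8e-07). LRP2 was at 3.78, 5.1 and 5.43 CPM in CD44 High and at 47.6, 44.5 and 42 CPM in CD44 Low. LRP2 encodes megalin, a large endocytic receptor, and fell by 3.23 (SE 0.21, adjusted p = 5.81e-07). PCDH7 was at 9.65, 11.5 and 13.2 CPM in CD44 High and at 60.9, 63.9 and 55 CPM in CD44 Low. PCDH7 is a protocadherin, a homophilic adhesion molecule (log2 fold change -2.39, SE 0.15, adjusted p = 4.64e-07). Its relatives PCDH9 (from 87.4 ± 16.5 to 21.2 ± 2.49 CPM; -2.05, adjusted p = 1.85e-06), CDH10 (from 44.5 ± 3.23 to 8.86 ± 2.14 CPM; -2.33, adjusted p = 1.15e-06) and the calsyntenin CLSTN2 (-2.69, adjusted p = 1.59e-05) were lower too.

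WNT5A was at 11.3, 13.5 and 10 CPM in CD44 High and at 57.6, 62.4 and 40.4 CPM in CD44 Low. WNT5A, a ligand of the Wnt pathway that mostly signals without beta-catenin, fell by 2.20 (SE 0.22, adjusted p = 2.76e-05), without overlap. SEMA3E, a secreted semaphorin that binds plexin D1, fell by 2.25 (60.6, 51.2 and 58.3 CPM in CD44 Low against 12.6, 9.36 and 13.7 CPM in CD44 High), and ADAMTS5, a protease that cuts the cartilage proteoglycan aggrecan, by 2.39. RGS7BP, a membrane anchor of regulators of G protein signalling, fell by 2.30 with the smallest SE of the 24 genes (0.11). GASK1B, for a kinase-like Golgi protein, fell by 2.67. UGT1A7, a glucuronosyltransferase, was at 0.913, 2.67 and 2.11 CPM against 22.4, 17 and 21.6 CPM (log2 fold change -3.43, SE 0.37, adjusted p = 5.28e-05), but it shares exons with the other genes of its locus and its count is uncertain.

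**Figure D2:**
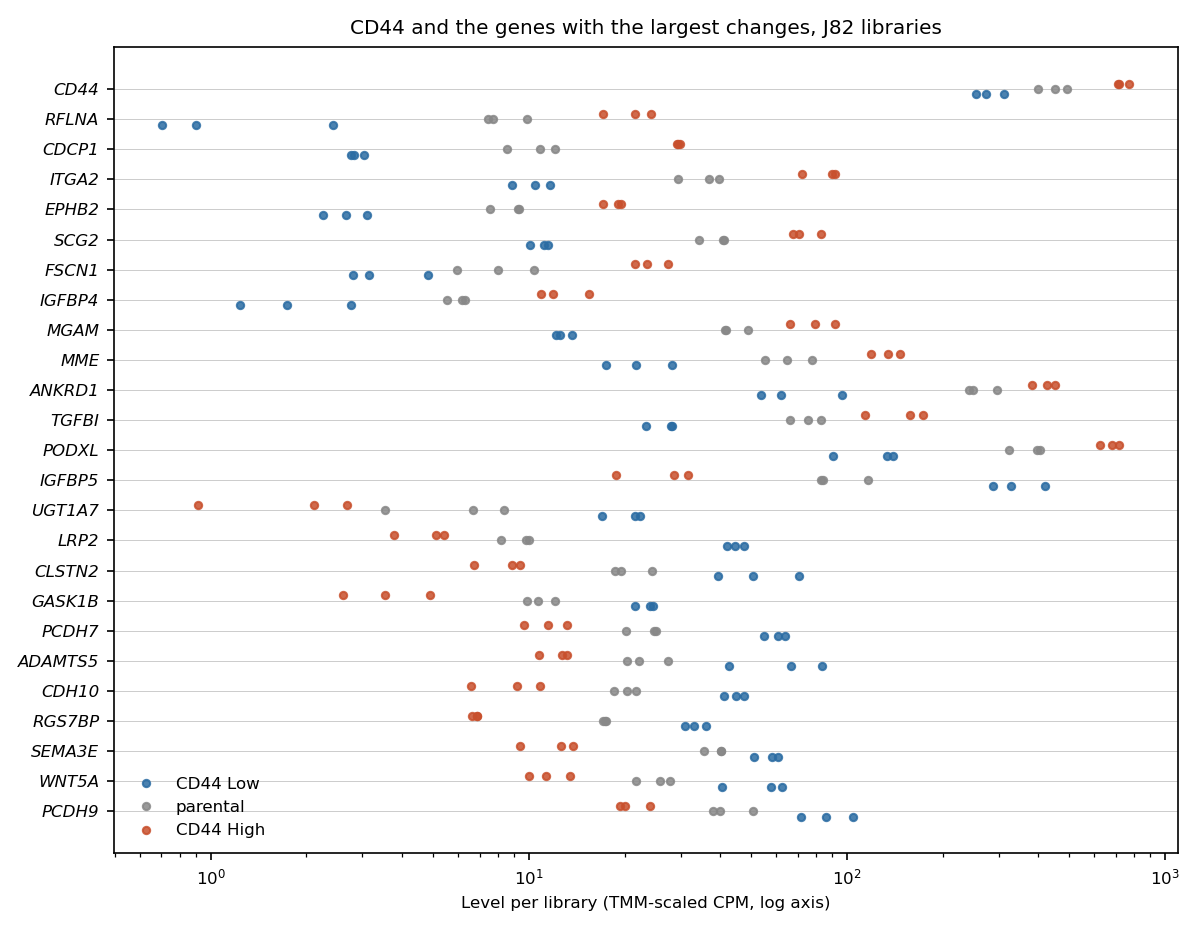
CD44, the 12 top increases and the 12 top decreases are shown by library, with the TMM-scaled CPM on a log axis and 1 point for each of the 3 CD44 High, 3 CD44 Low and 3 parental J82 libraries. In each of these 25 rows the orange CD44 High points and the blue CD44 Low points are apart and the mean of the grey parental points lies between them.

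Parental J82 cells had intermediate levels of these genes. For all 24, the parental mean lay between the means of CD44 High and CD44 Low. Against parental cells all 24 were called in CD44 Low, where 5.34% of all tested genes were called, and 21 in CD44 High, where 2.94% were called. These comparisons share the parental libraries with each other and their other libraries with the main comparison. The 24 were chosen for a large difference between those same CD44 High and CD44 Low libraries, so high shares were largely fixed by the choice. ITGA2, for example, was at 35.3 ± 5.31 CPM in parental cells, 1.26 below its CD44 High level and -1.78 in CD44 Low against parental cells. IGFBP5 was at 94.2 ± 18.9 CPM in parental cells, with -1.84 in CD44 High against them and 1.87 in CD44 Low against them.

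The direction in the other line was read from RT-112 CD44 High against CD44 Low, where 2507 of 15645 genes (16%) were called. Of the 24 genes, 17 could be tested in RT-112. There 7 were called, each in the same direction as in J82, and 10 did not pass. ITGA2, for instance, changed by 0.11 in RT-112 (adjusted p = 0.771) and PODXL by 0.75 (adjusted p = 0.00153). The test of the difference between the lines, over all 24 libraries, called 1858 of 17438 genes (10.7%) and 14 of the 24. IGFBP5, LRP2, ADAMTS5, CLSTN2 and RGS7BP did not pass, although their estimates nearly equalled the J82 changes (for IGFBP5, -3.72 against -3.71). Their adjusted p in that test reached 0.999997 in fits with a library left out. Beside such large estimates this leaves too little precision for the test to decide whether the lines differ. The chromosome 19 gene PSG1, with too few counts to be tested in RT-112, gave a like result in that test (-1.10 against -1.10, adjusted p = 0.999986). Whether the genes named before it have counts in RT-112 is not given here, so their estimates are not to be read as a measured difference. CD44 itself did not pass in that test (-0.20, SE 0.23, adjusted p = 0.692).

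The rest of the account goes through 25 gene lists by role, each described by its members called higher and lower and by its median fold change, to be read against 8.83% higher, 6.9% lower and a median of -0.02 over all genes tested. Among the 9918 genes placed on chromosomes with an average log2 CPM of 3 or more, 11.1% were higher and 8.76% lower. The lists were chosen with earlier results of these data known. The plot of called shares by list gives all 25.

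**Figure D3:**
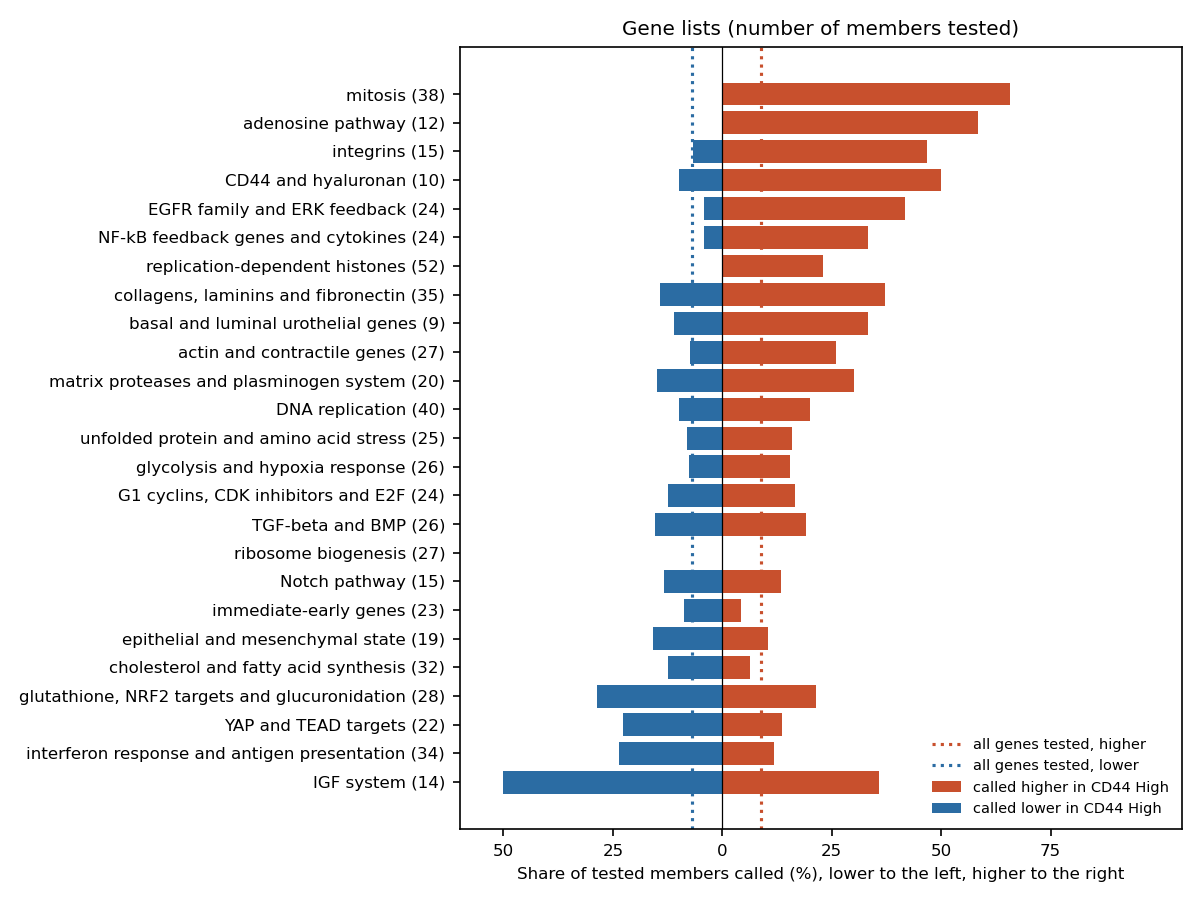
For each of 25 gene lists (number of members tested in brackets), the orange bar to the right is the percentage of tested members called higher in CD44 High and the blue bar to the left the percentage called lower; dotted lines mark 8.83% and 6.9%, the shares over all genes tested. Mitosis has the longest orange bar at 65.8% with none lower, the IGF system has long bars on both sides (35.7% and 50%), and ribosome biogenesis has no bar.

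Among 10 tested genes for hyaluronan and its receptors and for partners of CD44, CD44 left out, 5 were higher, 1 was lower and 4 did not pass (median 0.35). A pair of related enzymes that depolymerise hyaluronan went opposite ways. CEMIP was at 5, 5.4 and 3.74 CPM in CD44 High and 0.899, 1.57 and 0.691 CPM in CD44 Low (log2 fold change 2.15, SE 0.39, adjusted p = 0.00229), while its relative CEMIP2 was at 84, 84.4 and 77.3 and 184, 166 and 152 CPM (log2 fold change -1.03, SE 0.11, adjusted p = 6.03e-05). HMMR, a second hyaluronan receptor that also acts at the mitotic spindle, rose by 0.91, from 107 ± 12.4 to 201 ± 8.03 CPM. MET was at 421, 426 and 413 CPM in CD44 High and at 228, 209.8 and 212 CPM in CD44 Low. MET, the receptor of hepatocyte growth factor, showed a small, even difference (log2 fold change 0.95, SE 0.07, adjusted p = 1.85e-06). Moesin (MSN) rose by 0.38 (adjusted p = 0.0217), a call that held with CD44 High replicate 1 or CD44 Low replicate 3 left out and not with any other 1 library left out, whereas ezrin (EZR) overlapped between groups (-0.11, adjusted p = 0.623). The hyaluronan synthases HAS1, HAS2 and HAS3 had too few counts to be tested. With CD44 High replicate 2, CD44 Low replicate 1 or CD44 Low replicate 2 left out, 3 of the 10 were higher, and the median was 0.12 to 0.13 with no filter on low counts, with DESeq2 or with all 24 libraries, which test more of the list.

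Integrins, the dimeric receptors for matrix proteins, were higher in 7 of 15 tested members and lower in 1 (median 0.73). Beside ITGA2, the common beta subunit ITGB1 rose by 0.76, from 539 ± 15.4 to 916 ± 60.6 CPM (adjusted p = 5.02e-05). ITGA6 was at 195, 207 and 192 CPM in CD44 High and at 95.7, 88.7 and 93.6 CPM in CD44 Low. ITGA6, a laminin-binding subunit, did not overlap between groups (log2 fold change 1.10, SE 0.09, adjusted p = 4.58e-06), nor did the laminin-binding ITGA3 (0.94) or the fibronectin-binding ITGA5 (1.26). ITGB3 rose by 1.15 and the collagen-binding ITGA1 by 0.83. ITGB4, the partner of ITGA6 in hemidesmosomes, was at 2.96, 1.78 and 3.79 CPM against 9.78, 5.2 and 6.85 CPM and fell by 1.35 (adjusted p = 0.011), a call that was lost without CD44 Low replicate 1, while 2 of the list were lower without CD44 High replicate 1. With no filter, DESeq2 or all 24 libraries the median was 0.27 to 0.32. ITGAV overlapped between the groups (0.31, adjusted p = 0.138).

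Of 35 tested collagens, laminins, fibronectin and their modifying enzymes, 13 were higher, 5 lower and 17 did not pass (median 0.45). Genes of the basement membrane went both ways. COL4A1 was at 61.2, 60.2 and 44.9 CPM against 21.2, 19.6 and 19.6 CPM, and its partner chain COL4A2 at 300.4, 268 and 257 CPM against 95, 90.9 and 108 CPM (1.46 and 1.49). These 2 genes stand head to head and encode chains of 1 collagen IV trimer. The laminin chain LAMB2 fell by 0.61 (adjusted p = 0.000394), LAMA4 and nidogen NID1 rose by 1.06 and 1.07, and COL4A5 and perlecan (HSPG2) did not pass (-0.27, adjusted p = 0.298 and -0.26, adjusted p = 0.696). The microfibril collagen COL6A1 rose by 2.14, from 8.31 ± 0.677 to 36.5 ± 2.2 CPM. P4HA2, a collagen prolyl hydroxylase, rose by 2.20. COL13A1, a transmembrane collagen, had 28, 39 and 13 counts in CD44 High and no counts in CD44 Low, at least 22.99-fold higher against a floor of 3 counts over the group.

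Fibrillar collagens went both ways. COL3A1 was at 423, 436 and 386 CPM in CD44 High and at 1107, 1265 and 969 CPM in CD44 Low. COL3A1 fell by 1.42 (SE 0.12, adjusted p = 4.05e-06), with parental cells in between at 582 ± 36 CPM. COL1A2 fell by 1.38 and COL5A2 by 0.46, whereas COL27A1 rose by 0.87 (adjusted p = 0.000441) and COL5A1 did not pass (0.02, adjusted p = 0.961). COL12A1, which coats such fibrils, fell by 0.69, a call lost without CD44 High replicate 3 or CD44 Low replicate 1. COL1A1 was near the detection limit at 1.04, 1.53 and 0.948 and 3.2, 2.49 and 2.65 CPM (-1.24, adjusted p = 0.0931), and fibronectin (FN1) did not pass (-0.43, adjusted p = 0.253). COL3A1 and COL1A1 are also on the fibroblast marker list, whose sums are given above and whose part in this result was not tested; its members DCN and FAP had no counts. The number of lower members of the list was 3 without CD44 High replicate 3 or CD44 Low replicate 1, and its median was 0.27 without CD44 High replicate 2.

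Matrix proteases and the plasminogen system had 6 higher and 3 lower of 20 tested (median 0.38). Both plasminogen activators were higher. PLAU was at 69, 84.2 and 63.6 CPM in CD44 High and at 20.2, 21.2 and 20.2 CPM in CD44 Low. PLAU, urokinase, rose by 1.81 (SE 0.11, adjusted p = 3.8e-07), and the tissue-type activator PLAT rose from 9.67, 9.27 and 12.2 to 39.4, 45.1 and 35 CPM (log2 fold change 1.94, SE 0.19, adjusted p = 2.56e-05). The urokinase receptor PLAUR overlapped between groups (0.36, adjusted p = 0.17). The metalloproteinase inhibitors TIMP3 (0.91) and TIMP1 (0.62) were higher, and ADAMTS1 (-0.93) and ADAM12 (-0.72) were lower beside ADAMTS5, the call of ADAM12 being lost without replicate 1 of either group. MMP14 and MMP2 did not pass (0.30, adjusted p = 0.312 and 1.24, adjusted p = 0.0678).

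Genes of actin and contractility were called higher in 7 of 27 and lower in 2 (median 0.13). RFLNB, the relative of RFLNA, was at 8.04, 10.7 and 12.1 CPM against 2.42, 3.2 and 4.2 CPM (log2 fold change 1.65, SE 0.23, adjusted p = 0.000334). FHL2, an adaptor of focal adhesions, rose by 1.48, from 21.2 ± 2.02 to 59.2 ± 3.2 CPM, and tropomyosin TPM1 by 0.65. Caldesmon (CALD1), which binds actin and tropomyosin, was at 322, 351 and 437 CPM against 891, 922 and 1105 CPM and fell by 1.40 (adjusted p = 9.44e-05). The filamin FLNA, among the most abundant transcripts of the list, did not pass (0.15, adjusted p = 0.607). With any library other than CD44 Low replicate 2 left out, 1 of the 27 was lower.

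The 22 tested targets of YAP and TEAD, the coactivator and its DNA-binding partner at the end of the Hippo pathway, moved both ways: 3 were higher, 5 lower and 14 did not pass (median -0.03). ANKRD1 was at 427, 383 and 452 CPM in CD44 High and at 62.2, 53.9 and 96.5 CPM in CD44 Low. ANKRD1, for a nuclear ankyrin repeat protein, did not overlap between groups (log2 fold change 2.57, SE 0.24, adjusted p = 1.67e-05). CCN2 was at 87.7, 94.9 and 85.4 CPM in CD44 High and at 163, 194 and 119 CPM in CD44 Low. CCN2, for a secreted matricellular protein and like ANKRD1 a standard reporter of the pathway, fell by 0.83 (adjusted p = 0.0262), a call lost in 5 of the 6 fits that left out 1 library, all but that without CD44 Low replicate 3. CCN1 did not pass (-0.76, adjusted p = 0.107), and neither did AXL (0.23, adjusted p = 0.137). NT5E rose by 2.14 and F3, tissue factor, by 0.67, while RBMS3 fell by 1.12. The number of lower members was 2 without CD44 High replicate 1, CD44 High replicate 2 or CD44 Low replicate 1, and 3 without CD44 High replicate 3 or CD44 Low replicate 2; the median was 0.09 without CD44 Low replicate 1.

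The core of the TEAD binding motif, GGAATG on either strand, was found in 9 of the 18 promoters (50%) that the RefSeq table (GRCh38.p14) holds for 16 of these genes, and in 14.03% of all 35116 promoters of the same length, from 250 bases before to 50 after the start. The promoters of ANKRD1 and CCN2, which went opposite ways, are shown because both hold it. Each is the stretch from 230 to 81 bases before the start, 5′ to 3′ on the gene's strand, with GGAATG in capitals; ANKRD1 lies at chr10:90921168-90921317 and CCN2 at chr6:131951453-131951602, both on the minus strand.
ANKRD1: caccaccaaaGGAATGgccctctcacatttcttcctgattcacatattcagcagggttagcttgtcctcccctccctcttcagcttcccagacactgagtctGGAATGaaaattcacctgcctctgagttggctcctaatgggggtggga
CCN2: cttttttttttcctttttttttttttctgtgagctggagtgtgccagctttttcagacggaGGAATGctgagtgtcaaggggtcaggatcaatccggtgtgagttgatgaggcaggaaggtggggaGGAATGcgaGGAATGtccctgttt
ANKRD1 holds 2 copies here and CCN2 holds 3. A match is a description of the sequence only, and binding was not measured.

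Of 26 tested genes of TGF-beta and BMP signalling 5 were higher and 4 lower (median 0.00). The receptor subunit TGFBR2 rose by 1.62, from 4.02 ± 0.382 to 12.4 ± 0.918 CPM, and the ligand TGFB1 by 1.15, while the other receptor subunit TGFBR1 fell by 0.56 and the ligands TGFB2 and BMP4 by 0.37 and 0.67. Follistatin (FST), a secreted inhibitor of activins, was at 6, 4.85 and 6.53 CPM against 0.562, 0.108 and 0.461 CPM (log2 fold change 3.93, SE 0.39, adjusted p = 2.56e-05). The BMP target ID1 was at 74.5, 99.1 and 80.1 CPM against 27.5, 48.8 and 49.1 CPM (log2 fold change 1.02, SE 0.21, adjusted p = 0.00629), whereas the feedback inhibitor SMAD7 did not pass (0.58, adjusted p = 0.0794). The calls of TGFB2 and BMP4 were lost, and the number of lower members was 2, without CD44 High replicate 1 or 2 or CD44 Low replicate 1 or 3.

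The insulin-like growth factor system had few members without a call: 5 of 14 were higher, 7 lower and 2 did not pass (median -0.78). The secreted binding proteins split. IGFBP7 was at 42.6, 39.9 and 33 CPM in CD44 High and at 6.86, 8.51 and 6.51 CPM in CD44 Low. IGFBP7 (log2 fold change 2.40, SE 0.14, adjusted p = 3.43e-07) rose with IGFBP4, IGFBP2 (from 1.58 ± 0.156 to 9.52 ± 1.62 CPM; 2.58, adjusted p = 5.93e-06) and IGFBP6 (from 17.4 ± 2.03 to 43 ± 5.2 CPM; 1.31, adjusted p = 5.88e-05). IGFBP5 fell as given above, and so did IGFBP3, the most abundant of them, from 1494 ± 139.9 to 1031 ± 75.4 CPM (-0.54, adjusted p = 0.00359). On the cell side, the insulin receptor INSR fell by 1.14, from 39.8, 39.2 and 32.8 to 15, 21 and 14.9 CPM, and the adaptor IRS1 by 0.77. INSR lies on chromosome 19, many of whose genes were lower in CD44 High as described below, and the part of that shift in its fall was not tested. The clearance receptor IGF2R fell by 0.87, a call that held with CD44 Low replicate 3 left out and not with any other 1 library left out. IGF1R was lower in every CD44 High library than in any CD44 Low library and did not pass (-0.91, adjusted p = 0.0704). PAPPA, a protease that cleaves IGFBP4, fell by 1.06, and its inhibitors went apart, STC2 at 0.85 and STC1 at -1.42. The ligands IGF1 and IGF2 had too few counts to be tested.

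Of 24 tested genes of the EGFR family and of ERK feedback, a group of genes that ERK signalling induces and many of which restrain it, 10 were higher and 1 lower (median 0.76). DUSP6 was at 28.3, 27.8 and 18.6 CPM in CD44 High and at 7.36, 8.4 and 11.2 CPM in CD44 Low. DUSP6, the phosphatase of ERK, rose by 1.47 (SE 0.19, adjusted p = 0.000176). SPRY4, an inhibitor of the pathway, rose from 2.81, 2.01 and 2.82 to 6.78, 12.4 and 15.5 CPM (log2 fold change 2.18, SE 0.43, adjusted p = 0.00437). The ETS factors ETV5 and ETV4 rose by 1.14 and 1.07. Among ligands, NRG1 was at 173, 175 and 164 CPM against 71.2, 69.4 and 55.4 CPM (log2 fold change 1.38, SE 0.12, adjusted p = 6.82e-06). Among receptors, EGFR overlapped between the groups (-0.05, adjusted p = 0.92), and EPHA2, grouped here as an ERK target, rose by 1.06. The AP-1 subunit FOSL1 was called at 0.95 (adjusted p = 0.0466) although its groups overlap, with 114, 141 and 217 CPM against 57.1, 70 and 117 CPM, and the call was lost in 4 of the 6 fits that left out 1 library, all but those without CD44 High replicate 1 or CD44 Low replicate 3. Within each replicate number CD44 High was the higher. The only lower member, SPRY1 (-1.84, adjusted p = 0.0397), lost its call without CD44 High replicate 1 or 3 and without CD44 Low replicate 2 or 3.

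Feedback genes and cytokines of NF-kB were higher in 8 of 24 and lower in 1 (median 0.75). BIRC3 was at 58, 62.1 and 43.5 CPM in CD44 High and at 10.2, 8.24 and 13.5 CPM in CD44 Low. BIRC3, a ubiquitin ligase and inhibitor of apoptosis, rose by 2.36 (SE 0.18, adjusted p = 2.67e-06). IL1A rose from 3.77, 4.82 and 5.87 to 11, 20.4 and 12.7 CPM (log2 fold change 1.61, SE 0.25, adjusted p = 0.000868). CXCL1, IL1B, NFKBIE and TRAF1 rose by 2.15, 1.77, 1.19 and 1.09; the call of IL1B was lost without CD44 High replicate 2 or CD44 Low replicate 1. In several members the libraries of replicate 1 were low in both groups. TNFAIP3 was at 151, 290.5 and 322 CPM in CD44 High and at 71.4, 135 and 154 CPM in CD44 Low. For this ubiquitin-editing inhibitor of NF-kB the groups overlap although CD44 High was the higher within each replicate number, and the call (1.08, adjusted p = 0.0451) was lost in 4 of the 6 fits that left out 1 library, all but those without CD44 High replicate 1 or CD44 Low replicate 3. IL6 was at 65.8, 123 and 134 CPM in CD44 High and at 34.2, 81 and 92.4 CPM in CD44 Low. IL6 (0.64, adjusted p = 0.244) and CXCL8 (0.66, adjusted p = 0.349) likewise had replicate 1 lowest in both groups and CD44 High the higher within each number, and did not pass. The number of higher members was 5 without CD44 High replicate 2 or CD44 Low replicate 1, and the lower member, ICAM1 (-0.33, adjusted p = 0.0425), was called in 1 of the 6 fits that left out 1 library. CSF2 had 0, 33 and 50 counts in CD44 High and none in CD44 Low, at least 23.9-fold higher against a floor of 3 counts over the group.

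Immediate-early genes, which answer serum and stress within minutes, had 1 higher and 2 lower of 23 (median 0.04). FOS was at 187, 151 and 246 CPM in CD44 High and 129, 178 and 226 CPM in CD44 Low (0.13, adjusted p = 0.781), JUN and EGR1 did not pass (-0.03, adjusted p = 0.921 and 0.77, adjusted p = 0.0837), and MYC and JUND were lower (-0.65 and -0.88). JUND, like INSR above, lies on chromosome 19, and the part of that chromosome's shift in its fall was not tested. Against parental cells FOS was higher in both derivatives, by 2.49 in CD44 High and 2.36 in CD44 Low. The higher member was KLF10 (0.58, adjusted p = 0.0424), whose call was lost in 4 of the 6 fits that left out 1 library, all but those without CD44 High replicate 1 or CD44 Low replicate 3. The median was -0.09, -0.05 and -0.02 without CD44 High replicate 3, CD44 Low replicate 1 and CD44 Low replicate 2, where 0 members were higher, and 2 were higher without CD44 Low replicate 3.

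Of 34 interferon response and antigen presentation genes 4 were higher and 8 lower (median -0.09). The interferon-induced antiviral proteins MX1 (from 1079.7 ± 32.2 to 800.2 ± 51.3 CPM; -0.43, adjusted p = 0.00629) and MX2 (-0.46, adjusted p = 0.0299; call lost without CD44 High replicate 2 or CD44 Low replicate 1 or 2) and the transcription factor STAT2 were lower. CD274, the immune checkpoint ligand PD-L1, was at 29.3, 28.4 and 26.4 CPM against 40.8, 47 and 46.9 CPM (log2 fold change -0.68, SE 0.12, adjusted p = 0.00192). The immunoproteasome subunits PSMB9 and PSMB10 were higher (0.55 and 0.51; the call of PSMB10 was lost without CD44 High replicate 1 or 3 or CD44 Low replicate 1 or 2), and B2M did not pass (0.00, adjusted p = 0.998). The lower count was 2 without CD44 Low replicate 1 and 3 without any of the CD44 High libraries or CD44 Low replicate 2, and the higher count was 2 without CD44 High replicate 3, CD44 Low replicate 1 or CD44 Low replicate 2.

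Mitosis genes were higher in 25 of 38 tested members (65.8%) and lower in 0 (median 0.53), and 20 to 24 were higher with any 1 library left out. No member was lower by edgeR at an unadjusted p under 0.05 either, nor by DESeq2. In bulk RNA, more cells in mitosis and more RNA per cell cannot be told apart. CDK1 was at 122, 97.9 and 102 CPM in CD44 High and at 45.2, 46.2 and 50.4 CPM in CD44 Low. CDK1, the kinase that drives entry into mitosis, did not overlap between groups (log2 fold change 1.19, SE 0.14, adjusted p = 9.14e-05). UBE2C was at 164, 163 and 174 CPM in CD44 High and at 53.5, 55.1 and 77.3 CPM in CD44 Low. UBE2C, a ubiquitin-conjugating enzyme that works with the anaphase-promoting complex, rose by 1.43 (SE 0.15, adjusted p = 4.39e-05). The topoisomerase TOP2A rose by 0.97, from 574 ± 77.1 to 1124 ± 102 CPM, the kinases AURKB and AURKA by 0.83 and 0.75, and the cyclin CCNB1 by 0.62. Among the 13 that did not pass were MKI67, at 424, 432 and 575 CPM against 715, 424 and 389.5 CPM (-0.09, adjusted p = 0.87), PLK1 (0.26, adjusted p = 0.33) and the transcription factor FOXM1 (0.27, adjusted p = 0.212). For MKI67, CD44 Low replicate 1 was above all others. Parental cells were near CD44 High for several of these: CDK1 was at 91 ± 4.2 CPM there, with 0.24 in CD44 High and -0.94 in CD44 Low against parental cells.

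Promoters of mitosis genes are known for the CHR element (TTTGAA, or the variant TTTAAA) near a CCAAT box. RefSeq (GRCh38.p14) promoters were found for 32 of the 38 genes, 42 promoters in all. TTTGAA on either strand was in 61.9% of them and in 15.2% of all 35116 promoters, TTTAAA in 35.7% and 12.2%, and CCAAT in 73.8% and 34.6%. TTTGAA was in 73.9% of the 23 promoters of members called higher and in 47.4% of the 19 of members not called, while TTTAAA went the other way (26.1% and 47.4%) and either form was in 82.6% and 73.7%, a description with no test. CDK1, KIF23, PRC1 and ESPL1, all called higher (1.19, 0.66, 0.44 and 0.56), were picked by hand as examples that hold this arrangement. For CDK1 the promoter was picked for having TTTGAA close to the start, so these sequences do not stand for the called members. The 100 bases before the start are shown 5′ to 3′ on the gene's strand. TTTGAA and CCAAT or its reverse complement ATTGG are in capitals. They lie at chr10:60778378-60778477 (plus strand), chr15:69414249-69414348 (plus), chr15:90994536-90994635 (minus) and chr12:53268199-53268298 (plus).
CDK1: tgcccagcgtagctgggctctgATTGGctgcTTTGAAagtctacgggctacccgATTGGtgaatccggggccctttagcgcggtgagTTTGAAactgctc
KIF23: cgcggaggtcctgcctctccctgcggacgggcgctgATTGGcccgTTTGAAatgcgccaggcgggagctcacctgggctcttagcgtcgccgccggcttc
PRC1: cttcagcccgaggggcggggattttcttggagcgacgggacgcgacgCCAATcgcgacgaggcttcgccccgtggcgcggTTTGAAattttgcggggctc
ESPL1: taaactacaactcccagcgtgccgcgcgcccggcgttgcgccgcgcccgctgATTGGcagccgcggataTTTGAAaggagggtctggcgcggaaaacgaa
KIF23 and PRC1 are a kinesin and a microtubule bundler of the central spindle, and ESPL1 encodes separase, which cuts cohesin at anaphase.

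DNA replication genes were higher in 8 of 40 and lower in 4 (median 0.10). The ribonucleotide reductase subunits RRM2 and RRM1, which make deoxynucleotides, led the higher ones: RRM2 rose from 110.4, 112 and 128 to 199, 206 and 186 CPM (log2 fold change 0.75, SE 0.09, adjusted p = 9.66e-05), RRM1 from 435 ± 36.2 to 660.0 ± 17 CPM (0.60, adjusted p = 0.000379). Among subunits of the replicative helicase, MCM6 (-0.60; call lost without CD44 High replicate 1 or 3 or CD44 Low replicate 1 or 2) and MCM3 (-0.35) were lower and MCM2 was not called (0.21, adjusted p = 0.0562). PCNA overlapped between groups (-0.05, adjusted p = 0.813). The higher count was 5 without CD44 High replicate 1 or 2 and 4 without CD44 Low replicate 1, and the lower count was 2 without CD44 High replicate 1 or CD44 Low replicate 1.

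Replication-dependent histone genes, which lack poly(A) tails and are nearly identical in sequence, had 12 higher of 52 and 0 lower by edgeR, with 32 and 0 at an unadjusted p under 0.05 and 18 and 0 by DESeq2 (median 0.44), with H3C2 at 159, 127 and 108 CPM against 70.9, 71.1 and 84.9 CPM (0.80, adjusted p = 0.00336). Their counts are uncertain between copies, and 1 was higher without CD44 High replicate 1 or CD44 Low replicate 1, 6 without replicate 2 of either group, and 23 without CD44 High replicate 3.

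Genes of the G1 phase had 4 higher and 3 lower of 24 (median -0.08). CCND1 was at 1041, 1073 and 968 CPM in CD44 High and at 344, 320.2 and 349.6 CPM in CD44 Low. Cyclin D1 is the partner of CDK4 and CDK6, and its change was large and even (log2 fold change 1.60, SE 0.08, adjusted p = 2.15e-07). CDKN2B was at 31.7, 37.4 and 39.9 CPM in CD44 High and at 119, 115 and 122 CPM in CD44 Low. CDKN2B encodes the CDK4 and CDK6 inhibitor p15 and went the other way (log2 fold change -1.71, SE 0.10, adjusted p = 3.8e-07). The inhibitor CDKN1A (p21) rose by 1.22, from 8.32, 11.3 and 12.8 to 22.1, 31.6 and 21.8 CPM. Parental cells had 701 ± 11.2 CPM of CCND1 and 71.6 ± 3.36 CPM of CDKN2B, between the derivatives, and E2F1 overlapped (-0.13, adjusted p = 0.596). The calls of CDKN2A and E2F3 (-0.32 and -0.32) were weak, so that 1 of the 24 was lower without any one of the CD44 High libraries or of CD44 Low replicates 2 and 3.

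**Figure D4:**
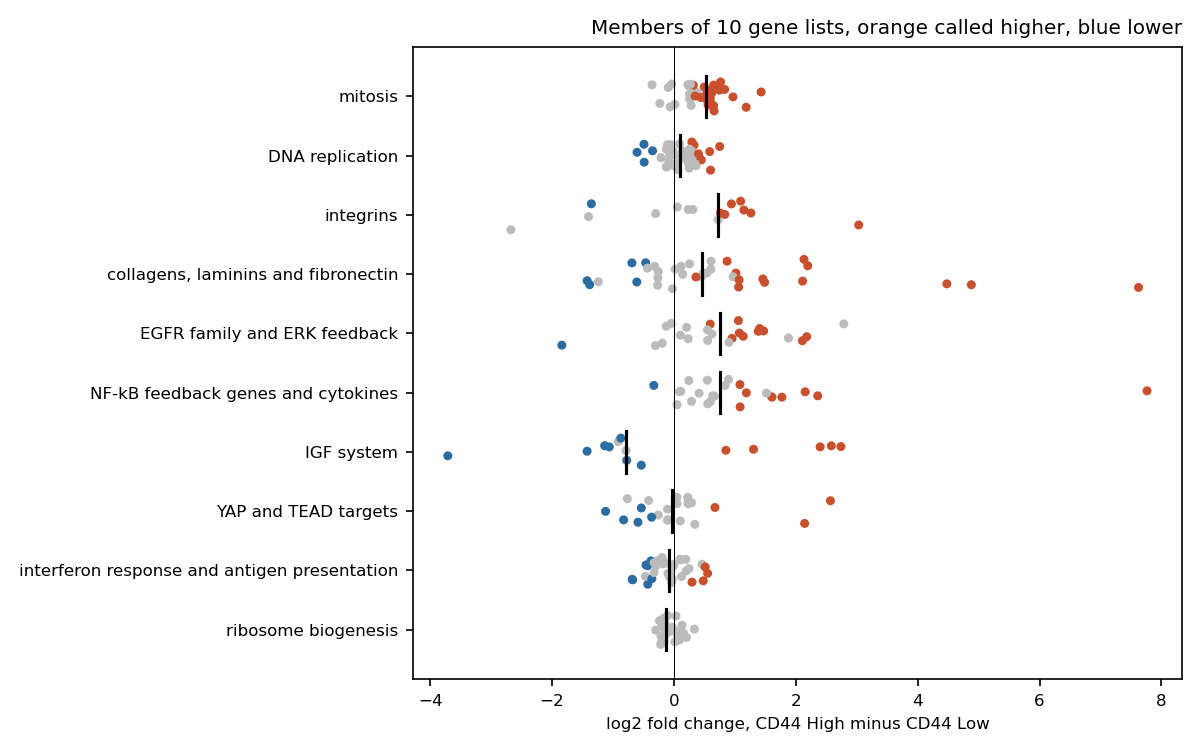
Each point is a tested member of 1 of 10 gene lists (rows), placed by its log2 fold change, CD44 High minus CD44 Low (x axis); orange was called higher, blue lower, grey did not pass, and the black bar is the list's median. Mitosis points are orange or grey around a median of 0.53, the IGF system splits into 2 clouds, and ribosome biogenesis stays around 0.

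Metabolic and stress lists had calls in both directions. Cholesterol and fatty acid synthesis had 2 higher and 4 lower of 32 (median -0.07), with SCD, the stearoyl-CoA desaturase, at -0.60 (call lost without CD44 High replicate 2 or CD44 Low replicate 1) and HMGCS1 at -0.30 (call lost without CD44 High replicate 3). Without replicate 1 or 2 of either group none of that list was higher, without CD44 Low replicate 3 1 was, and without CD44 High replicate 2 or CD44 Low replicate 1 or 3, 2 were lower. Glycolysis and the hypoxia response had 4 higher and 2 lower of 26 (median 0.09), with NDRG1 falling from 146, 155 and 167 to 64.8, 73.5 and 72.7 CPM (log2 fold change -1.15, SE 0.09, adjusted p = 4.07e-06), whereas LDHA did not pass (0.03, adjusted p = 0.92); the higher count was 2 without CD44 High replicate 1 or 2 or CD44 Low replicate 2. In the same list 1 was lower without replicate 1 or 2 of either group. The unfolded protein and amino acid stress list had 4 higher and 2 lower of 25 (median -0.02), with VLDLR at -1.17 and PDIA6 at 0.53, and 1 was lower with any 1 library left out. Its median was 0.00 to 0.02 without CD44 High replicate 1 or any 1 of the CD44 Low libraries.

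In the list of glutathione, NRF2 targets and glucuronidation, 6 of 28 were higher and 8 lower (median -0.25). The aldo-keto reductases AKR1C1 and AKR1C3, close relatives in sequence, went apart (0.86 and -0.61). The cystine transporter SLC7A11 fell from 371 ± 35.1 to 244 ± 38.7 CPM (-0.61, adjusted p = 0.0267), a call lost in 4 of the 6 fits that left out 1 library, all but those without CD44 High replicate 1 or CD44 Low replicate 3, and HMOX1 fell by 0.52. NQO1, a standard NRF2 target, overlapped (-0.13, adjusted p = 0.564), while GSTP1 rose by 0.54. Ribosome biogenesis, from 28 genes of which 27 were tested, had 0 called by edgeR in either direction (median -0.13), with 1 higher and 3 lower at an unadjusted p under 0.05, and DESeq2 called 1 lower.

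Of 9 tested basal and luminal urothelial genes, 3 were higher and 1 lower (median 0.25, and 0.00 in the fit on all 24 libraries, which tests more of them). KRT7 was at 2944, 3241 and 2374 CPM in CD44 High and at 898, 1279 and 983 CPM in CD44 Low. This luminal and simple-epithelial keratin rose by 1.44 (adjusted p = 3.5e-05). PPARG, a nuclear receptor of luminal differentiation, was at 54.1, 43.3 and 45.5 CPM against 22.7, 19.8 and 20.7 CPM (log2 fold change 1.18, SE 0.11, adjusted p = 1.72e-05). The pioneer factor gene FOXA1 rose by 1.24, a call that held with replicate 3 of either group left out and not with any other 1 library left out. The basal keratin KRT17 fell by 1.45, from 136 ± 9.51 to 49.8 ± 10.7 CPM. The basal keratins KRT5, KRT14 and KRT6A, TP63, and the luminal uroplakins had too few counts to be tested.

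Of 19 tested genes of epithelial and mesenchymal state 2 were higher and 3 lower (median 0.09). VIM was at 628, 616 and 592 CPM in CD44 High and at 213, 247 and 237 CPM in CD44 Low. Vimentin, the mesenchymal intermediate filament, rose by 1.40 (SE 0.08, adjusted p = 2.89e-07). CDH1, E-cadherin, was low throughout, at 12, 11 and 9 counts in CD44 High and 107, 87 and 113 counts in CD44 Low (log2 fold change -3.47, SE 0.26, adjusted p = 1.89e-06). N-cadherin (CDH2) and the repressor ZEB1 did not pass (0.23, adjusted p = 0.279 and 0.36, adjusted p = 0.0822), ZEB2 fell by 0.62 (call lost without CD44 High replicate 1 or 2 or CD44 Low replicate 1), and the matrix protein TNC rose by 2.37. The lower count was 1 without CD44 High replicate 1 or 2 or CD44 Low replicate 1.

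The adenosine pathway had 7 higher and 0 lower of 12 by edgeR and by DESeq2, with 1 lower at an unadjusted p under 0.05 (median 0.66), and 4 were higher without CD44 High replicate 3 or CD44 Low replicate 2. NT5E was at 156, 145 and 155 CPM in CD44 High and at 30.9, 34.4 and 38.1 CPM in CD44 Low. NT5E is CD73, the surface enzyme that makes adenosine from AMP, and it is the same gene as on the YAP and TEAD list (log2 fold change 2.14, SE 0.11, adjusted p = 2.15e-07). The receptor ADORA2B was at 53.9, 50.1 and 52.5 CPM against 29.2, 29.5 and 32.2 CPM (log2 fold change 0.78, SE 0.10, adjusted p = 0.000144), the transporter SLC29A1 rose by 0.72, and adenosine deaminase (ADA), which removes adenosine, rose by 0.90 (call lost without CD44 High replicate 2). Of 15 Notch pathway genes 2 were higher and 2 lower (median 0.11, and -0.06 and -0.04 without CD44 High replicate 2 and CD44 Low replicate 1), with the ligand JAG1 at 0.45 (call kept only without CD44 High replicate 3 among the 6 such fits) and the coactivator MAML2 at -0.80; HES1 did not pass (0.27, adjusted p = 0.323). The higher Notch calls were 0 without CD44 High replicate 1 or 2 or CD44 Low replicate 1 or 2, and 1 without replicate 3 of either group.

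Position in the genome was examined over all chromosomes, with genes placed by RefSeq (GRCh38.p14; 15679 of 15951 tested genes matched), and chromosome 19 was singled out after all values were seen, so it is described with no test. Of 1003 tested genes on chromosome 19, 237 (23.6%) were lower in CD44 High and 17 (1.69%) higher, with a median fold change of -0.32. Elsewhere 5.85% of genes were lower and 9.43% higher, and the medians by chromosome ran from -0.10 (chromosome 13) to 0.10 (chromosome 11). The lower genes were spread along most of chromosome 19: the median was -0.36 over 452 genes of the short arm and -0.29 over 551 of the long arm. Windows of 40 neighbouring genes were taken among those whose average log2 CPM was 3 or more, with 16 windows on chromosome 19. The last of them, 29 genes from CCDC106 to CENPBD1P1, had a median of -0.01, with 0 called higher and 3 lower. In CD44 High against parental cells its median was 0.09, so this end did not share the shift. All other windows of chromosome 19 ran from -0.43 to -0.16, and 232 windows elsewhere from -0.28 to 0.34. Smaller runs of neighbouring windows stood out elsewhere, also picked after the values were seen, and those named are not a full list. They were 0.12 to 0.25 on chromosome 3 (KALRN to RPL35A) and -0.28 to -0.11 on chromosome 6 (HACE1 to PDCD2). On chromosome 5 (FBXO38 to UIMC1) they were 0.22 to 0.23. On chromosome 7 (RCC1L to WDR60) they were -0.21 to -0.06. Every window of chromosome 11 was above 0 (0.03 to 0.20), in RT-112 too (0.06 to 0.23). The window at 0.34 was that of histone genes (H4C2 to H3C10). The 250 zinc finger genes of chromosome 19, a family of transcriptional repressors concentrated there, had a median of -0.51 (102 lower) and its other 753 genes -0.28, whereas 281 zinc finger genes on other chromosomes had -0.20.

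By library, the median of 629 chromosome 19 genes whose average log2 CPM was 3 or more, relative to the parental mean, was -0.20, -0.21 and -0.18 in CD44 High and 0.11, 0.10 and 0.13 in CD44 Low. In CD44v6, the other J82 derivative, it was -0.14, -0.15 and -0.17. The CD44 High and CD44v6 libraries thus lay below the parental mean and the CD44 Low libraries above it. Over all tested genes of chromosome 19 the median of CD44v6 minus CD44 Low was -0.25, with the CD44 Low libraries shared with the main comparison. The difference of the group means of these medians was -0.31 in J82 and, over the 535 such genes of RT-112, 0.04 in RT-112. SMARCA4, an ATPase of chromatin remodelling on the short arm, was at 172, 179 and 242 CPM in CD44 High and 436, 391 and 357 CPM in CD44 Low (log2 fold change -0.999, SE 0.19, adjusted p = 0.00329). ZNF91, which represses retrotransposons, fell by 0.996, and the pregnancy-specific glycoprotein PSG1 of the long arm by 1.10; the PSG genes are similar in sequence and their counts uncertain. These 3 were chosen after their values were seen. Gene list members on chromosome 19, INSR and JUND among them, were counted in their lists without regard to this shift. Without CD44 High replicate 1, CD44 High replicate 2 or CD44 Low replicate 1, the number of lower genes on chromosome 19 was 137, 140 and 142, and the median stayed between -0.33 and -0.30.

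Genes of chromosome 19 are short and rich in G and C, so both were read beside it. Outside chromosome 19 the median fold change ran from 0.14 in the decile of genes with the shortest span to -0.09 in the decile with the longest, and from -0.05 to 0.12 from the lowest to the highest decile of transcript GC. Within chromosome 19 it was -0.25 in the shortest decile (74 genes), -0.34 in the decile with the highest GC (198 genes), and below 0 in every decile with at least 20 genes. By GC it was lower in deciles 1 to 4, at -0.43, -0.64, -0.57 and -0.58 (26 to 35 genes each), than in deciles 5 to 10, at -0.14 to -0.34.

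**Figure D5:**
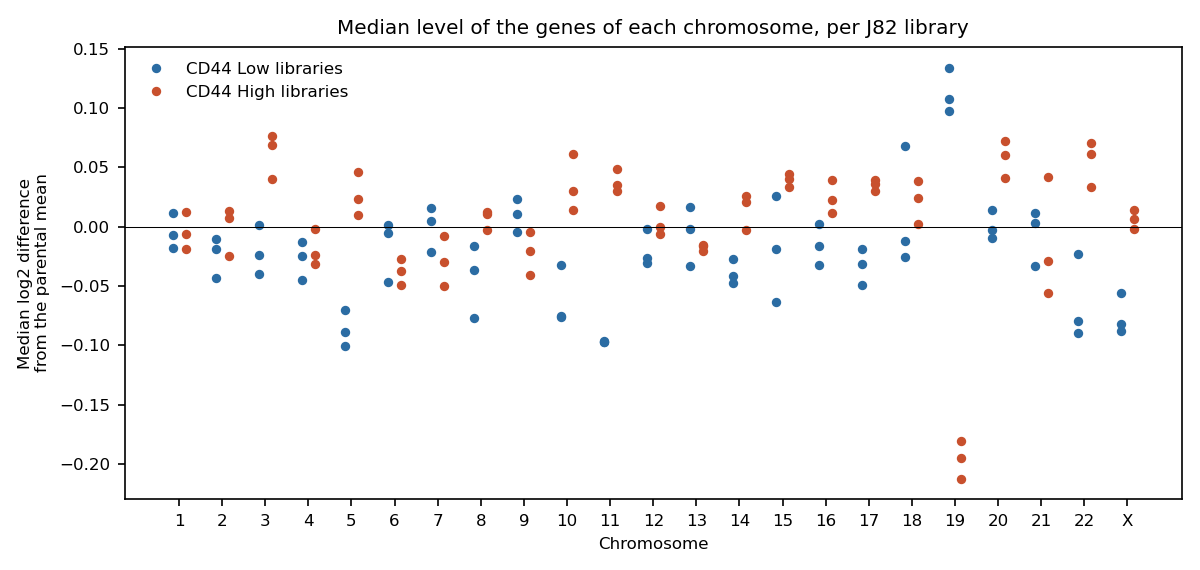
For each chromosome (x axis) the points give, for each CD44 High (orange) and CD44 Low (blue) library, the median log2 difference of its genes whose average log2 CPM was 3 or more from the parental mean (y axis). On chromosome 19 the CD44 High libraries lie at -0.21 to -0.18 and the CD44 Low libraries at 0.10 to 0.13, further apart than on any other chromosome shown.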

How the data were processed

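RNA was sequenced from cultured J82 and RT-112 cells, and the authors deposited 1 table of whole-number counts per gene for 24 libraries. The submitters' processing notes name HISAT2, StringTie and the genome build GRCh37, with no versions given for the tools. The strand setting of the counting is not given in the sources used here. TMM scaling, a filter on low counts by group, and quasi-likelihood F-tests (group as the only term, called at a Benjamini-Hochberg adjusted p under 0.05, two-sided) were run with edgeR 4.0.16 in R 4.3.3 on the 12 J82 libraries, which share 1 estimate of the spread, and over all 24 libraries for the difference between the lines. The procedure was tested on simulated data. Of 35993 genes 15951 passed the filter. Total counts per library were 16964094 to 22698239 in the 6 libraries compared, and replicates of a group differed by 11.8 to 44.0 times the sampling noise (chi-square per degree of freedom), so none was counted as a duplicate. The series' design text calls the replicates biological; what separates them is not described, so p-values measure the spread between these libraries. The common biological coefficient of variation was 0.183.

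The members and gene lists were chosen with earlier results of these data known. Named genes are CD44; the 12 largest increases and 12 largest decreases among called genes whose groups did not overlap, at an average log2 CPM of 3 or more; preset key members of each list; and up to 4 called members per direction and list at an average log2 CPM of 1 or more. Genes named outside this rule are said to be so or belong to a list. A few named genes are not reported here. Alternatives were other scaling factors, other filters, DESeq2 1.42.0, the replicate number as a block, fewer or more libraries in the fit, and each library left out. Symbols were placed on chromosomes and promoters taken from RefSeq GRCh38.p14, whose coordinates are given for the printed promoters only, because the counts use another build. Figures were drawn with matplotlib 3.10.9 in Python 3.11.15.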

Additional observations from a re-analysis of the deposited data

Results flagged for a closer look

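For 14 of the 24 genes with the largest changes the difference between CD44 High and CD44 Low was not the same in J82 and in RT-112, by the interaction test in edgeR over all 24 libraries (adjusted p under 0.05, where 10.7% of all genes tested passed). These genes were chosen for the size of their J82 change, which the test contains, so a share above that of all genes was built in. Those that did not pass cannot be taken to change alike in both lines. Values are the log2 change in J82 minus that in RT-112. Among genes measured well in both lines it was 2.95 for the integrin subunit ITGA2 (adjusted p = 1.01e-06), 2.48 for CDCP1, 2.4 for the receptor EPHB2, 2.24 for fascin (FSCN1), 2.16 for TGFBI and 1.76 for podocalyxin (PODXL). CDCP1, EPHB2, FSCN1, TGFBI and PODXL were called higher in CD44 High in RT-112 too, by 0.90, 0.43, 0.54, 0.35 and 0.75, so these differ between the lines in size.

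RFLNA (6.58) and SCG2 (4.71) had too few counts in RT-112 to be tested there, and their sizes rest on values near 0. MGAM differed by 3.28 (adjusted p = 9.46e-07) and MME by 1.67 (adjusted p = 0.0129). Among the genes that fell, PCDH7 differed by -2.22, GASK1B by -2.1 and WNT5A by -1.74 (adjusted p = 0.0033). ANKRD1 differed by 1.09 (adjusted p = 0.0397), a call that was lost in 8 of the 12 fits that left out 1 library. The call of MME was lost without RT-112 CD44 Low replicate 1 and that of SCG2 without RT-112 CD44 Low replicate 2.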

How the results depend on the processing

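No called gene named by the rule changed direction under any alternative run, and CD44 was called in all. Against 2508 genes called, there were 716 with a log2 fold change of at least 1 added to the call (426 higher, 290 lower), 2010 without a filter, 2983 with DESeq2 and 1578 to 2278 with 1 library left out (949 to 1325 higher, 612 to 953 lower). Of the calls, 56.1% were higher in CD44 High, and 52.4% to 61.6% under the other settings. The count of genes whose change differed between the lines, 1858, was 1229 to 2040 with 1 library left out, lowest without RT-112 CD44 High replicate 1. Medians near 0 changed sign with 1 library left out for YAP and TEAD targets, immediate-early genes, amino acid stress and Notch.

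Same-numbered libraries of the groups had correlated deviations from their group means of 0.04, 0.11 and 0.23 over all tested genes, and of 0.20, 0.28 and 0.30 over the 9954 at an average log2 CPM of 3 or more, where every library correlated best with its own number, a hint from the data and not from the design, since the labels do not say what a number marks. With the replicate block 2710 genes were called, 2383 of them among the 2508. Of the named genes the block lost the calls of E2F3, SLC7A5 and AK4 and gained those of ITGAV, MMP2, TAGLN, SMAD7, NFKBIA, CXCL8, MCM2, VEGFA, DDIT3 and ZEB1. TNFAIP3 and FOSL1 were called with and without the block, and IL6 in neither fit. Under the block 0 members of the EGFR list and 4 of the glycolysis list were lower, and 1 of the Notch list was higher. At 3 libraries per group, a small difference that did not pass cannot be taken as absent.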

Other observations

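Several families outside the gene lists were looked at after their values were seen, so they are described with no test of the family, and their counts are to be read against 8.83% of all tested genes higher and 6.9% lower. The drug efflux pump gene ABCB1 (P-glycoprotein) was at 18.7, 16.7 and 15.2 CPM in CD44 High and 63.2, 60.4 and 61.4 CPM in CD44 Low, with parental cells at 28.7 ± 1.61 CPM (log2 fold change -1.87, SE 0.10, adjusted p = 2.89e-07). Of 33 tested ATP-binding cassette transporters, ABCC1 (-0.82, adjusted p = 0.0437), ABCB6 and ABCA1 were also lower and ABCG2 was higher (0.82, adjusted p = 0.0225), the last with overlapping groups.

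Of 7 tested protocadherins outside the gene clusters, PCDH7, PCDH9, PCDH17 (-1.69) and PCDH18 (-0.91) were lower and PCDH1 was higher (20.3, 15.9 and 20.9 CPM against 2.59, 4.17 and 5.3 CPM; 2.24, adjusted p = 4.39e-05). Of 7 tested cadherins, CDH1, CDH10, CDH6 (-1.36, adjusted p = 0.00231) and CDH8 (-0.88, adjusted p = 0.0461) were lower. Guidance receptors and ligands went both ways. Of 8 tested ephrin receptors, EPHB2 and EPHA2 were higher and EPHA5 (-2.54, adjusted p = 2.62e-06) and EPHA4 (-0.78, adjusted p = 0.000367) lower. Of 14 tested genes with semaphorin symbols, among them the antisense RNA SEMA6A-AS1, SEMA3C (0.78, adjusted p = 0.000369) and SEMA7A were higher, the latter at 0.304, 0.495 and 1.11 CPM against 0, 0.108 and 0.115 CPM (adjusted p = 0.0294), and SEMA3E, SEMA3B (-1.86, adjusted p = 0.00639) and SEMA5A (-1.33, adjusted p = 0.00164) were lower. Of 12 tested serpins, inhibitors mostly of serine proteases, 6 were higher. SERPINB5 (maspin) rose from 0.899, 0.867 and 0.173 to 2.83, 2.33 and 2.32 CPM (log2 fold change 1.93, SE 0.42, adjusted p = 0.00731).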
